A study of Rosa hybrid cultivar with 12 samples.

Results

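Each treatment of a rose bud experiment was harvested on 3 dates, and the dates are compared here with the treatment held fixed. The members are all 12 libraries of the series, sorted by the number in their titles, which the labels tie to a harvest on 20 June (number 1), 20 August (number 2) or 20 October (number 3). Each date held 4 libraries, 1 from each treatment group. RNA came from wild-type plants of a hybrid rose cultivar, with flower bud named as the tissue, and was sequenced as polyA-selected, stranded, paired-end libraries. All groups received sucrose, at either 10 mM or 100 mM, and at each dose 1 group also received NAA, a synthetic auxin, at 1 µM. They are named by the sucrose dose, followed by "alone" or "with NAA". The labels describe a greenhouse with a fixed light period kept up by lamps and a climate chamber with a set temperature, and do not say at which step the buds were cut.

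As background, an axillary bud of rose may stay closed or grow out, depending on signals from the rest of the shoot. Auxin made in the growing shoot tip restrains buds below it, and sugar supplied to the bud favours outgrowth. Plants raised in a greenhouse still meet a changing season through daylight and temperature, and buds taken in different months can therefore start an experiment in different states. Gene activity was read as counts per gene. The files do not pair gene IDs with names, so genes are given by ID, no function can be assigned to them, and the tissue label could not be checked against bud or flower marker genes.

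Some limits belong to the dates themselves. Each month was sampled by 1 harvest, so the 4 libraries of a date repeat the treatments and not the month. A p-value for a date therefore measures how alike the date difference was in the 4 treatments. Whatever else libraries of the same number shared, such as plants, handling or library preparation, cannot be told apart from the harvest date. The labels give a planting date after the harvest date for 6 libraries and on the harvest day for 4. For the August and October harvests the labelled planting date is the same in all groups. For the June harvest it is 2 May and 2 June for the groups at 10 mM (alone and with NAA), and 2 July and 2 August for those at 100 mM. A planting after the harvest cannot be right as written, so some of the date labels are in doubt, and the harvest dates were taken as labelled without a way to check them.

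Library size was compared between the dates. June libraries held 7369267 to 9881297 gene counts, August libraries 12068935 to 16757019 and October libraries 8229391 to 15896711. August was above June in 4 of 4 groups and October above June in 3 of 4. Over all 3 dates, the exact permutation test that shuffles dates within groups gave p = 0.0556 for gene counts and p = 0.0278 for the number of genes with a count (28321 to 30009 in June, 30542 to 31069 in August, 29563 to 30844 in October). Both had an adjusted p of 0.25 over 9 library measures in this exact test, whose smallest possible p is 0.00463. Without the 10 mM with NAA group, the exact p was 0.222 for gene counts and 0.167 for the number of genes with a count. The share of multimapping reads was lower in August than in June in 4 of 4 groups, with ranges of 3.75% to 4.02% and 4.04% to 4.68%. Over all 3 dates the exact test gave p = 0.593 for this share (adjusted p = 0.667).

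A pair of libraries stood apart from the others of their date. The June library of 10 mM with NAA had 24.9% of its counts in its 100 most counted genes, against 15.3% to 15.8% in the other June libraries, and a TMM scaling factor (trimmed mean of M-values, edgeR's correction of library size) of 0.745, against 0.984 to 1.05. The October library of 100 mM alone had 5.44% multimapping reads, against 3.15% to 3.52% in the other October libraries, the lowest count total of that date and 6.17% unmapped reads, the highest share of any library. After dates and treatments were fitted, these libraries held 17.2% and 12.2% of the remaining variance of log2 CPM (counts divided by the TMM-scaled library size, with a prior count of 2), against 5.31% to 10.2% in the other 10 libraries. Counts of genes called between dates are given below without each of them and without both.

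**Figure D1:**
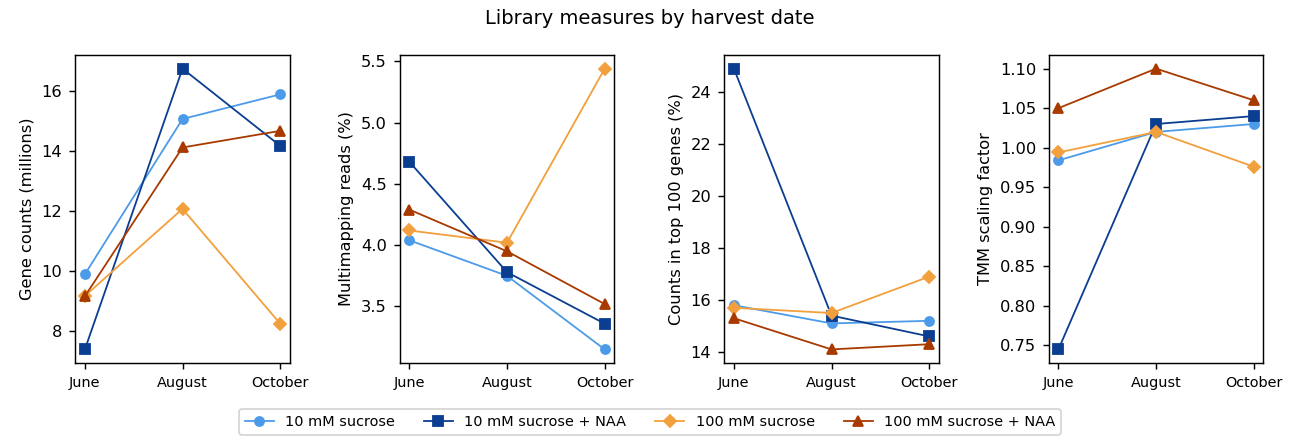
Total gene counts, multimapping reads, share of counts in the 100 most counted genes and TMM scaling factor (vertical axes) by harvest date (horizontal axis), with 1 point per library and lines joining libraries of a treatment. The June library of 10 mM with NAA lies apart in the share of the 100 most counted genes (24.9%) and in the TMM factor (0.745), and the October library of 100 mM alone in multimapping reads (5.44%).

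The first question was how much of the variation between libraries went with the harvest date. In log2 CPM, treatment group held 55.6% of the variance over all tested genes, harvest date 20.5% and the remainder 23.9%. Per degree of freedom these were 18.5%, 10.3% and 3.98%. Date held more variance than treatment for 25.7% of genes. It held the largest of the 3 shares for 3554 of 24267 genes, against 13540 for treatment and 7173 for the remainder. These shares per gene were not divided by the degrees of freedom, which were 3 for treatment, 2 for date and 6 for the remainder.

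When each treatment was centred on its own mean, libraries fell together by date. The first component held 31.3% of the variance and had the 4 June libraries at its low end, from -73.8 to -14.5, below August (-1.51 to 34.5) and October (2.45 to 39.3). August and October overlapped on it. They separated on the second component, which held 24.1%, where August lay at -51.6 to -9.6 and October at 15.6 to 42.5, with June between them at -16.2 to 20.2 and overlapping both. Group 10 mM with NAA held both ends of the first axis, in June at -73.8 and in October at 39.3, and the low end of the second, in August at -51.6. The high end of the second was the October library of 100 mM with NAA. These scores are given as a description, without a test.

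**Figure D2:**
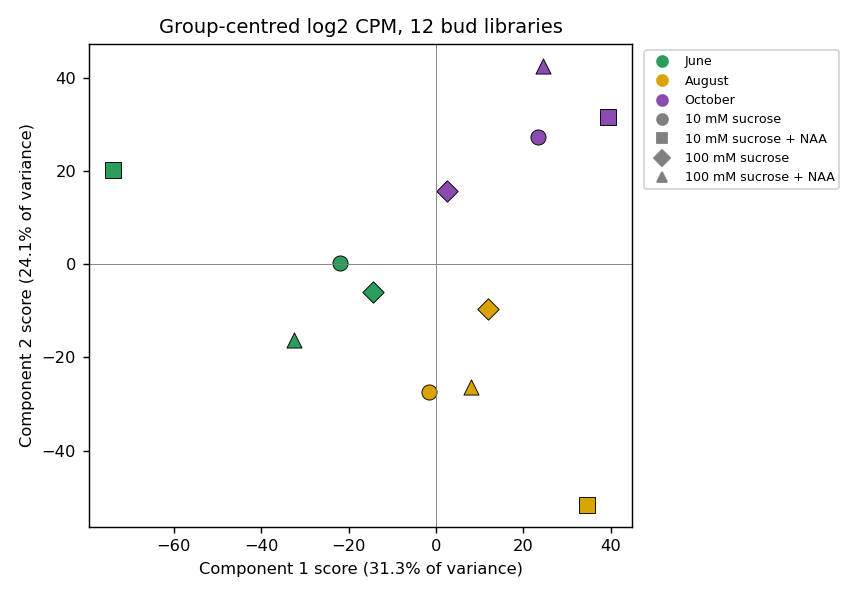
Scores on the first (horizontal) and second (vertical) component of log2 CPM after centring each treatment group on its mean, with 1 symbol per library, colour for the date and shape for the treatment. June lies to the left of August and October, and August lies below October in every treatment.

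A gene was called for a date comparison when its edgeR quasi-likelihood test, with treatment group as a term, gave a Benjamini-Hochberg adjusted p under 0.05. For a difference among the 3 dates in any direction, 1433 genes were called, 5.91% of the 24267 tested. In the same fit the average auxin effect was called for 8260 genes (34.0%; 16.5% higher and 17.5% lower with NAA) and the average sucrose effect for 4961 (20.4%; 9.42% higher and 11% lower at 100 mM). On the other side, 15635 genes (64.4%) had 95% intervals within 1 log2 unit of no change, in either direction, for all 3 pairs of dates, so a date difference above 2-fold lay outside their intervals. No tested gene was near absent at 1 date, with at most 3 counts over its 4 libraries, and at 1 CPM or more in every library of another date.

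The count of 1433 depended on which libraries were in the fit. It was 644 and 632 without the August and October library of 10 mM alone, and 892 and 446 without those of 10 mM with NAA. Without the June and October library of 100 mM alone it was 912 and 2638, and without the June, August and October library of 100 mM with NAA it was 609, 566 and 249. The count was 1928 without the June library of 10 mM with NAA and 4181 without both libraries that stood apart. Leaving out libraries also takes away degrees of freedom, of which the full fit had 6. The pair that stood apart was picked on these data and held the largest shares of the variance left after dates and treatments were fitted. Taking it out can by itself lower the spread and raise the counts, here and below, so those counts are not better estimates of the date difference.

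Among the 1433 genes, June was the highest date for 495 (34.5%), August for 462 (32.2%) and October for 476 (33.2%), close to the shares over all tested genes, which were 35.1%, 30.9% and 34.0%. The lowest level was at October for 686 (47.9%), June for 445 (31.1%) and August for 302 (21.1%). The most frequent orders were August above June above October, in 24.1% of the called genes and 15.2% of all, June above August above October (23.8% and 17.6%) and October above August above June (22.9% and 19.9%). Then came June above October above August (10.7% and 17.5%), October above June above August (10.3% and 14%) and August above October above June (8.16% and 15.7%). Orders with October lowest were thus more frequent among called genes than among all. Those with August lowest were less frequent, and those with June lowest went both ways. August lay between the other dates for 46.7% of the called genes and for 37.5% of all tested genes. The genes highest in June took 1.93% to 3.75% of the counts of a June library, with a median of 2.62%, against medians of 1.72% in August and 1.46% in October. Those highest in August had medians of 1.27%, 2.14% and 0.962% in June, August and October, and those highest in October 1.48%, 1.64% and 2.46%. Since the libraries measured here also picked the genes, the shares only show how much of the counted RNA they made up.

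From June to August, 141 genes rose (0.581% of those tested) and 164 fell (0.676%), together 1.26%. The median change was 1.09 log2 units among those that rose and -1.21 among those that fell, and 82 and 117 of them changed at least 2-fold. The date difference had the same sign in all 4 treatments for 303 of the 305 called genes, an agreement for which the test with treatment as a term itself selects. The median absolute change over all genes was 0.21 log2 units.

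The gene that rose most by the naming rule, gene:RC2G0456000, went from 1.13 CPM in June to 6.32 in August at 10 mM alone, from 0.912 to 10.4 at 10 mM with NAA, from 0.44 to 0.972 at 100 mM alone and from 3.44 to 12.3 at 100 mM with NAA. August was higher in each treatment, but the August value at 100 mM alone lay inside the June range of the other treatments. It rose by 2.21 log2 units (SE 0.349, edgeR adjusted p = 0.0214).

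The next, gene:RC4G0174500, stood at 0.515, 2.92, 2.09 and 2.29 CPM in June for 10 mM alone, 10 mM with NAA, 100 mM alone and 100 mM with NAA, and at 4.76, 7.33, 6.4 and 14.1 CPM in August. In October it was back at 0.858, 0.819, 1.87 and 1.99 CPM, so all 4 August libraries lay above all 8 others. It rose by 2.11 log2 units from June to August (SE 0.307, edgeR adjusted p = 0.0167) and fell by 2.57 from August to October (SE 0.299, edgeR adjusted p = 0.0034). October and June differed by -0.45 (SE 0.362, edgeR adjusted p = 0.501).

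Among genes that fell into August, gene:RC2G0010800 had 1.34, 10.0, 6.38 and 4.69 CPM in June and 0.391, 0.349, 0.567 and 0.706 CPM in August, in the same order of treatments. The dates did not overlap, and the August levels rested on 30 counts in all. The change was -3.38 log2 units (SE 0.633, edgeR adjusted p = 0.0359). A more abundant gene, gene:RC3G0335900, went from 54.4, 148, 50.3 and 33.8 CPM in June to 15.6, 1.92, 10.5 and 3.92 in August, and stayed low in October at 13.8, 9.08, 9.97 and 12.7 CPM. June was above both later dates in every treatment. It fell by 3.18 from June to August (SE 0.594, edgeR adjusted p = 0.0359) and October was below June by -2.54 (SE 0.569, edgeR adjusted p = 0.0338). Its difference of -6.15 at 10 mM with NAA was the steepest of the 4 treatments, and without the June library of that group, the one that stood apart, the change was -2.47 (edgeR adjusted p = 0.0126).

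June against August was the comparison most easily lost. The count of 305 was 74, 78 and 167 without the June, August and October library of 10 mM alone, 64 and 148 without the August and October library of 10 mM with NAA, and 172, 198 and 478 without those of 100 mM alone. It was 28, 0 and 123 without the June, August and October library of 100 mM with NAA, 284 without the June library of 10 mM with NAA and 754 without both libraries that stood apart, which included 288 of the 305. The 8 June and August libraries alone gave 0, with 3872 genes at an unadjusted p under 0.05 in edgeR, while DESeq2 on all libraries called 1009. With libraries left out in turn, the call of gene:RC2G0456000 was lost in 5 of 12 fits, those without the June or August library of 10 mM alone or 100 mM with NAA or the August one of 10 mM with NAA (edgeR adjusted p = 0.0568 to 0.0875). That of gene:RC4G0174500 was lost in 2, without the June or August library of 100 mM with NAA (0.0766 to 0.0804). That of gene:RC2G0010800 was lost in 8 and kept only without the June or October library of 10 mM alone or the October one of 10 mM with NAA or 100 mM alone (0.0521 to 0.117). That of gene:RC3G0335900 was lost in 8 and kept only without the June library of 10 mM with NAA, the August or October one of 100 mM alone or the October one of 100 mM with NAA (0.0506 to 0.146).

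From August to October, 251 genes rose (1.03% of those tested) and 476 fell (1.96%), together 3.0%. The median was -1.23 log2 units among genes that fell and 0.92 among those that rose, and 302 fell at least 2-fold against 99 that rose as much. In all 25 alternative fits, more genes were called with a fall of at least 2-fold than with such a rise. Without the October library of 100 mM alone the balance over all called genes turned, with 895 that rose and 769 that fell, and so it did without all 3 libraries of that group, with 648 and 539.

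Among the rising genes, gene:RC5G0554500 had 18.1, 40.1, 25.1 and 58.7 CPM in August and 132, 163, 130 and 186 CPM in October, for 10 mM alone, 10 mM with NAA, 100 mM alone and 100 mM with NAA. The October values lay close together and above all August values. June was uneven, at 18.4, 232, 43.9 and 76.0 CPM, with the highest value in the library that stood apart. The change from August to October was 2.28 (SE 0.425, edgeR adjusted p = 0.0211).

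Another that rose, gene:RC2G0491700, went from 15.4, 1.28, 38.8 and 6.74 CPM in August to 55.8, 13.4, 63.0 and 36.9 CPM in October. The order of the treatments was the same at both dates, lowest at 10 mM with NAA and highest at 100 mM alone, and the ranges of the dates overlapped. It changed by 1.98 (SE 0.321, edgeR adjusted p = 0.0126).

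The steepest named fall belonged to gene:RC7G0344800, from 5.09, 54.5, 0.324 and 45.6 CPM in August to 0.98, 2.87, 0.249 and 0.579 CPM in October. Its August level was highest in the groups with NAA and lowest at 100 mM alone. The log2 differences were -2.2, -4.17, -0.24 and -5.95, so the change was largest in the groups with NAA. That of -0.24, at 100 mM alone, rested on 4 counts in August and 2 in October. In June the gene stood at 5.25, 13.7, 0.55 and 3.44 CPM. The August to October change was -4.29 (SE 0.653, edgeR adjusted p = 0.00942). A like picture was given by gene:RC1G0585600, which went from 17.2, 127, 4.86 and 37.4 CPM to 2.21, 15.9, 2.74 and 2.83 CPM and changed by -2.80 (SE 0.427, edgeR adjusted p = 0.00942). It was lower in October than in June too, by -1.94 (SE 0.442, edgeR adjusted p = 0.0352).

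The count of 727 was 108 and 316 without the August and October library of 10 mM alone, and 1585, 285 and 147 without the June, August and October library of 10 mM with NAA. It was 1664 without the October library of 100 mM alone, and 177 and 79 without the August and October library of 100 mM with NAA. Without both libraries that stood apart, 3581 genes were called, among them 726 of the 727, and the share that rose went from 34.5% to 54.4%. The 8 August and October libraries alone gave 1235, DESeq2 gave 1402, and thinning every library to the smallest total gave 479. The call of gene:RC5G0554500 was lost in 4 of the 12 fits with 1 library left out, those without the August or October library of 10 mM alone, the August one of 10 mM with NAA or the October one of 100 mM with NAA (edgeR adjusted p = 0.0583 to 0.0974). That of gene:RC2G0491700 was lost in 3, without the August library of 10 mM alone or the August or October one of 100 mM with NAA (0.0556 to 0.08). That of gene:RC7G0344800 was lost in 2, without the October library of either group with NAA (0.0576 to 0.0861), while gene:RC1G0585600 was called in all 12.

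Between June and October, 509 genes were higher in October (2.10% of those tested) and 582 lower (2.40%), together 4.50% and the largest number for any pair of dates in this fit. At least 2-fold changes were again more often falls, at 350 against 136, and this held in all 25 alternative fits. Over all called genes, 1146 were higher and 1130 lower without the October library of 100 mM alone. With every library thinned at random to the smallest total, 933 genes were called.

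Levels rose from June on in gene:RC5G0467700, with 1.85, 1.46, 2.86 and 2.5 CPM in June, 4.89, 5.35, 3.97 and 7.32 in August and 10.1, 8.53, 8.98 and 5.6 in October. June lay below both later dates without overlap, and October was above August in 3 of 4 treatments. Its October to June change was 1.90 (SE 0.295, edgeR adjusted p = 0.00969). In gene:RC1G0363300 the June values of 1.24, 1.82, 3.41 and 1.35 CPM were followed by 8.54, 3.72, 5.11 and 6.42 in August and 16.8, 4.78, 8.85 and 6.18 in October. October was above June without overlap, by 2.17 log2 units (SE 0.365, edgeR adjusted p = 0.0123).

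The most even fall was that of gene:RC6G0129100. Its levels were 15.5, 8.2, 9.24 and 9.38 CPM in June, 7.11, 4.95, 6.4 and 3.53 in August and 1.72, 0.341, 0.623 and 0.643 in October, with no overlap between any dates. Per treatment, October was below June by -3.07, -4.06, -3.58 and -3.57 log2 units. The fitted change was -3.67 (SE 0.273, edgeR adjusted p = 0.000716), and -2.73 from August to October (SE 0.276, edgeR adjusted p = 0.00171). From June to August it was -0.94 (SE 0.22, edgeR adjusted p = 0.0654). Its October to June call was kept in all 25 alternatives, with changes from -4.09 to -3.46.

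In contrast, the fall of gene:RC0G0126400 was carried unevenly. It had 0.618, 56.5, 0.66 and 5.42 CPM in June and 0.123, 2.12, 0.249 and 0.708 CPM in October. The June value of 56.5 CPM came from the library that stood apart, and the groups without NAA were below 1 CPM at both dates. The change was -3.83 (SE 0.603, edgeR adjusted p = 0.0101) with all libraries and -2.40 (edgeR adjusted p = 0.0144) without that one.

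The count of 1091 was 690 and 350 without the June and October library of 10 mM alone, 237 without the October library of 10 mM with NAA, and 514 and 2276 without the June and October library of 100 mM alone. It was 179 and 85 without the June and October library of 100 mM with NAA, 970 without the June library of 10 mM with NAA and 2964 without both libraries that stood apart, which held 976 of the 1091. The 8 June and October libraries alone gave 478, and DESeq2 on all libraries gave 1835. The call of gene:RC5G0467700 was kept in all 12 fits with 1 library left out. That of gene:RC1G0363300 was lost without the June or October library of 100 mM with NAA (edgeR adjusted p = 0.0672 and 0.0503), and that of gene:RC0G0126400 without the October library of 10 mM with NAA or 100 mM with NAA (0.0868 and 0.0742).

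**Figure D3:**
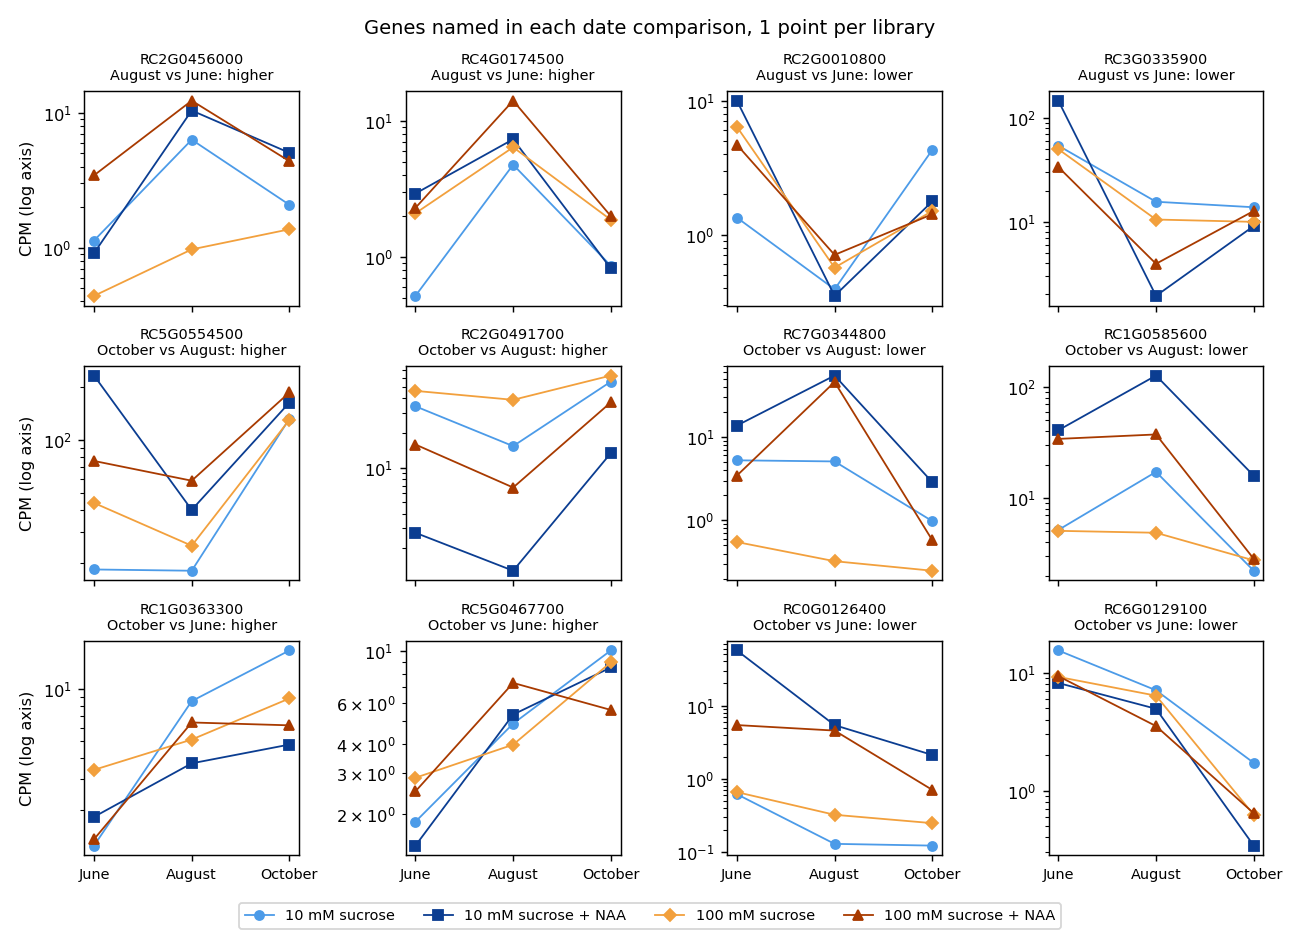
Level of each named gene in CPM (vertical log axes, each panel on its own scale) by harvest date (horizontal axis), with 1 point per library and lines joining libraries of a treatment. All 4 lines move the same way between the dates that head each panel, which the naming rule requires. The move is most even for RC6G0129100, which ran from 8.2 to 15.5 CPM in June and from 0.341 to 1.72 in October.

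**Figure D4:**
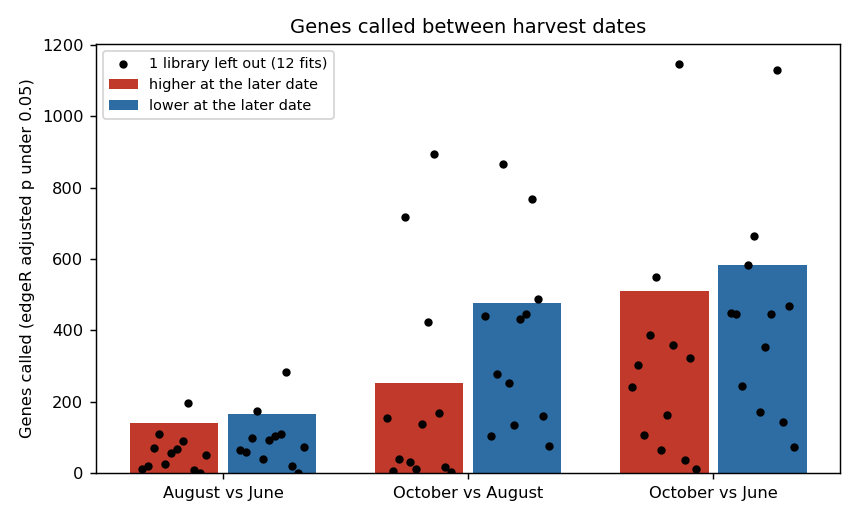
Genes called higher or lower at the later date of each pair (bars, from all 12 libraries) and the same counts with 1 library left out (12 dots per bar). October against August had 251 higher and 476 lower, and the dots spread from 3 to 895 and from 76 to 867.

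Each date was also set against the mean of both others, to ask how far each one stood apart. October had 673 genes higher (2.77%) and 614 lower (2.53%), together 5.30% of those tested. June had 402 higher (1.66%) and 170 lower (0.701%), together 2.36%, and August 296 (1.22%) and 85 (0.350%), together 1.57%. With changes of at least 2-fold, June had 212 genes higher and 37 lower, August 171 and 39, and October 121 and 305. With all libraries, genes with raised levels were thus the larger number for June and August, and genes with reduced levels for October at 2-fold. Without both libraries that stood apart, August had 754 genes higher and 837 lower over all called genes, so its balance turned, though at 2-fold it had 276 and 127. These comparisons share libraries and are not independent of each other.

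These counts moved with single libraries as well. The October count of 1287 was 426 and 378 without the August and October library of 10 mM alone, 164 without the October library of 10 mM with NAA, 827 and 2326 without the June and October library of 100 mM alone, and 530, 676 and 34 without the June, August and October library of 100 mM with NAA. The June count of 572 was 317 and 328 without the June and October library of 10 mM alone, 267 without the October library of 10 mM with NAA, 294, 314 and 1265 without the June, August and October library of 100 mM alone, and 90, 252 and 198 without those of 100 mM with NAA. The August count of 381 was 227 and 81 without the June and August library of 10 mM alone, 617, 161 and 219 without the June, August and October library of 10 mM with NAA, 694 without the October library of 100 mM alone, and 51 and 154 without the August and October library of 100 mM with NAA. Without both libraries that stood apart, October had 4114, June 1223 and August 1591, so August then exceeded June. October had the fewest of the 3 dates without its library of 100 mM with NAA (34, against 198 for June and 154 for August) or of 10 mM with NAA (164, against 267 and 219). Leaving out just the June library of 10 mM with NAA gave 1901 for October and 420 for June.

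Whether a date difference depended on the treatment was tested by adding date terms of their own for NAA or for the sucrose dose. In edgeR, 0 genes (0.00%) were called for date by auxin, and the lowest adjusted p was 0.611. An unadjusted p under 0.05 was found for 1189 genes (4.9%), close to the share that this threshold gives by chance. With 1 library left out, that number ran from 531 to 3527. Fits with these terms had 4 residual degrees of freedom, so a lack of calls does not show that date differences were the same with and without NAA. For date by sucrose 0 genes (0.00%) were called again, with a lowest adjusted p of 0.932 and 978 genes (4.03%) at an unadjusted p under 0.05. DESeq2 called 39 and 4, and limma voom with library weights called 0 for both. The date by auxin count was 301 without the June library of 100 mM with NAA, 3 without the June library of 10 mM with NAA, 1 without the October library of 10 mM alone and 47 without both libraries that stood apart. The date by sucrose count was 207 without the June library of 10 mM alone and 1 without that of 100 mM alone. Both counts were 0 without the October library of 100 mM alone.

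The gene with the smallest p for date by auxin, gene:RC1G0488800, had 43.0 CPM in August at 100 mM with NAA and at most 6.36 CPM in the other 11 libraries. Its adjusted p was 0.611 in edgeR and 0.000223 in DESeq2. Over its 22 alternatives the adjusted p ran from 0.000223 to 1. For date by sucrose it was gene:RC3G0283200, which had 12.8, 8.18 and 1.99 CPM in June, August and October at 100 mM alone and 18.0, 16.8 and 5.34 at 100 mM with NAA. At 10 mM alone it had 1.24, 1.17 and 3.37 CPM and at 10 mM with NAA 1.46, 0.407 and 1.84. The October level was thus the lowest of the 3 dates in both groups at 100 mM and the highest in both at 10 mM, with an adjusted p of 0.932 in edgeR and 0.000169 in DESeq2, and 0.000169 to 1 over its 23 alternatives.

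The size of the date differences was not the same in all treatments. Between the June and August libraries, 19.3% of tested genes differed at least 2-fold in log2 CPM at 10 mM with NAA, against 5.06% at 10 mM alone, 4.92% at 100 mM alone and 7.50% at 100 mM with NAA. Between June and October the shares were 16.9%, 7.19%, 8.76% and 10.3% in that order, and between August and October 9.26%, 6.84%, 6.50% and 7.89%. The date differences of 10 mM with NAA were then tested against those of the other 3 groups, as each group was in turn, a test added after the data, with the odd June library among them, were seen. The tested group has 1 library per date, so the spread comes from the other groups alone and the tested group is assumed to vary like them. On that assumption, edgeR called 341 genes (1.41%) for 10 mM with NAA, with 3686 (15.2%) at an unadjusted p under 0.05. It called 0 for 10 mM alone, 100 mM alone and 100 mM with NAA. In these, 445 (1.83%), 1501 (6.19%) and 447 (1.84%) had an unadjusted p under 0.05. For the same 3 groups DESeq2 called 0, 63 and 8. The count of 341 became 1 without the June library of that group, 18 without the August one and 698 without the October one.

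Date differences were then compared between treatments, which share no library. Across the 24267 genes, the October to August difference of 1 treatment correlated with that of another at r = 0.48 to 0.58 among 10 mM alone, 10 mM with NAA and 100 mM with NAA, and at r = 0.07 to 0.19 between 100 mM alone and any of these. From June to October the same ranges were 0.34 to 0.45 and 0.07 to 0.24. From June to August, where the October libraries play no part, they overlapped, at 0.25 to 0.36 and 0.21 to 0.36. Genes are not independent replicates, and these values are given as a description. Library depth was uneven too. In October it was 8229391 gene counts at 100 mM alone, against 14176362 to 15896711 in the other groups. The mean difference of both groups without NAA and that of both groups with NAA correlated at 0.45 from June to August, 0.50 from August to October and 0.41 from June to October.

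**Figure D5:**
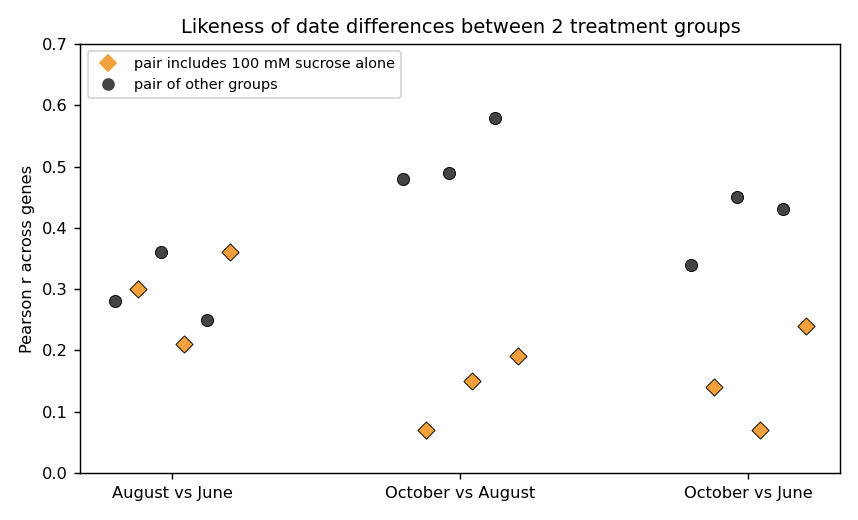
Pearson correlation across 24267 genes (vertical axis) between the date differences of 2 treatment groups, for each pair of dates (horizontal axis), with 1 point per pair of treatments. Pairs that include 100 mM alone reach at most 0.24 where October is compared, against 0.34 to 0.58 for other pairs.

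Genes called on 3 treatments were also measured in the treatment left out of the fit. Of 75 genes higher in October than in August in the other groups, 100% were higher at 10 mM with NAA, with a median log2 difference of 1.45. Of 273 that were lower, 97.1% were lower there, with a median of -1.13. At 10 mM alone 97.8% of 89 lower genes moved the same way (median -1.40), and at 100 mM with NAA 97.5% of 40 (median -1.95). At 100 mM alone the shares were 61.7% of 647 higher genes, with a median of 0.09, and 80.1% of 538 lower ones, with a median of -0.59. Over all genes in that group, 49.7% were higher and 50.3% lower, with a median difference of 0.

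The June to October difference behaved alike. The genes called on the other groups had the same sign in the group left out for 98.0% of 51 higher and 91.2% of 171 lower genes at 10 mM alone, for 85.9% of 185 and 89.3% of 403 at 10 mM with NAA and for 100% of 6 and 100% of 45 at 100 mM with NAA. At 100 mM alone it was 81.5% of 557 and 63.5% of 630. In the calling groups, the lower genes had medians of -1.64, -1.24, -2.03 and -1.23 in that order of groups, and the higher ones 1.13, 0.9, 1.48 and 0.89. From June to August, the signs at 100 mM alone were the same for 97.7% of 44 higher and 93.2% of 59 lower genes. Its medians there were 0.67 and -0.97, smaller than the 1.6 and -1.59 of the calling groups. These lists were shorter. The shares at 10 mM with NAA were 91.1% of 45 and 90.5% of 74. With 10 mM alone left out, 0 higher and 9 lower genes were called, and with 100 mM with NAA left out 0 in either direction, too few to compare. The October library of 100 mM alone enters both comparisons in which the shares were low and not the third. Its higher multimapping share and lower depth are given above, and their part in this was not tested.

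Several of the genes with the largest date differences also responded to the treatments in the same fit. Of the 12 named for a pair of dates, 9 were called for the average auxin effect, 6 higher with NAA and 3 lower, beside 34.0% of all genes, and 3 for the average sucrose effect, beside 20.4%. The auxin effect was 4.54 log2 units for gene:RC0G0126400 (SE 0.52, edgeR adjusted p = 0.000184), 3.63 for gene:RC7G0344800 (SE 0.594, edgeR adjusted p = 0.00111) and -2.23 for gene:RC2G0491700 (SE 0.268, edgeR adjusted p = 0.000234). A set of 3 was called for neither treatment. For gene:RC5G0467700 the effects were -0.03 for auxin (SE 0.225, edgeR adjusted p = 0.947) and 0.04 for sucrose (SE 0.224, edgeR adjusted p = 0.926). The others were gene:RC2G0010800, at 0.03 and -0.21 (edgeR adjusted p = 0.971 and 0.802), and gene:RC3G0335900, at -0.37 and -0.56 (edgeR adjusted p = 0.571 and 0.422). The same 12 libraries give the date and the treatment effects, and every date holds each treatment once. The 12 genes were named for being called with the largest date changes in this same fit. That choice can itself favour a call for a treatment, so all genes are not a like baseline for them. Whether date and treatment responses go together was not tested.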

How the data were processed

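The authors deposited 1 file of raw whole-number counts per gene for each library, not normalised. Per the file headers, the columns hold unstranded, forward and reverse counts. TopHat2 and Bowtie2 are named in the submitters' processing notes, while the layout of the files is that of STAR gene counts, so which aligner set the unmapped and multimapping shares is not known. Settings, genome build and gene models were not given in the sources used here. For 42307 genes the reverse counts were used. The 4 summary rows, at 17.3% to 23.2% of reads, were left out.

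Analysis used R 4.3.3 and edgeR 4.0.16, with DESeq2 1.42.0 and limma 3.58.1 as alternatives. Genes passing filterByExpr (minimum count 10, minimum total 15) numbered 24267 and held 99.8% of gene counts. TMM scaling was followed by a quasi-likelihood model with treatment group and harvest date, whose biological coefficient of variation was 0.187. SE is the log2 change divided by the square root of F. The fit was tested on simulated data. Intervals cover the spread between libraries.

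The harvest date is the replicate number and pairs libraries across groups, per the labels. Deviations from group means correlated at 0.0647 to 0.592 over 18 same-date pairs of libraries, with 16 above 0.1, and at -0.422 to 0.0776 over 36 pairs of different dates. The design text names 2 biological replicates, and the titles number 3. Nothing in the labels says that libraries came from separate plants.

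Genes named in a comparison of dates were those called, with 1 sign in all 4 treatments, at least 5 CPM on average at the higher date, and the 2 largest changes in each direction. For the date by treatment tests, the gene with the smallest p is named. Lists by gene function could not be used without names. The comparisons and rules were chosen with earlier results of these data known. The comparison of each group with the others, the measurement in a group left out, and the fits without a whole group, without both libraries that stood apart or with thinned counts were added after the data were seen.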

Additional observations from a re-analysis of the deposited data

Results flagged for a closer look

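Among 39 sets of 4 values checked, which were library measures within a date and date differences of the named genes across treatments, 4 held a value far from the other 3, and chance alone gives about 1 in 20. The October library of 100 mM alone had 5.44% multimapping reads (3.15%, 3.36% and 3.52% in the other October libraries) and 29563 genes with a count (30662, 30655 and 30844). The June library of 10 mM with NAA had 24.9% of counts in its 100 most counted genes (15.8%, 15.7% and 15.3% in the others). The August library of 100 mM with NAA had a TMM factor of 1.10 (1.02, 1.03 and 1.02 in the others).

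A test added after the data were seen set the date differences of 10 mM with NAA against those of the other groups. It called 341 genes in edgeR, with 1 library per date in the tested group and the spread taken from the other groups alone. The count was 1 without the June library of that group, fell as well without the August one and was 698 without the October one. Each of these fits tests just 1 date difference of the group. The count thus hung on single libraries and does not show a difference between the treatments apart from them.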

How the results depend on the processing

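Counts of called genes moved with the libraries and the model used, and the cause was not tested. With 1 library left out in turn they ran from 249 to 2638 for any date, 0 to 478 for August against June, 79 to 1664 for October against August, 85 to 2276 for October against June, 90 to 1265, 51 to 694 and 34 to 2326 for June, August and October against the others, 0 to 301 for date by auxin, 0 to 207 for date by sucrose, 5870 to 9522 for auxin and 3199 to 6168 for sucrose. For the date differences of 10 mM with NAA against other groups the range was 1 to 698. In the following, date counts come in the order any date, August against June, October against August, October against June, then June, August and October against the others. Without treatment as a block they were 44, 13, 2, 31, 29, 4 and 7. DESeq2 gave 2741, 1009, 1402, 1835, 1382, 933 and 1932, and limma voom with library weights 3307, 1069, 2035, 2436, 1560, 1266 and 2692. Without both libraries that stood apart they were 4181, 754, 3581, 2964, 1223, 1591 and 4114. Leaving out all libraries of 10 mM alone gave 249, 9, 93, 222, 177, 49 and 172, of 10 mM with NAA 700, 119, 348, 588, 311, 227 and 709, and of 100 mM with NAA 60, 0, 42, 51, 51, 14 and 22. Without 100 mM alone, August against June had 103, October against August 1187 and June against the others 369. The 8 libraries of the dates compared gave 0, 1235 and 478 for the 3 pairs. Without the low-count filter August against June had 569 and August against the others 658, and thinning gave 479 for October against August. Date by auxin had 5 without the filter, 39 by DESeq2, 1 without 100 mM with NAA and 47 without both libraries, and date by sucrose 4 without the filter and 4 by DESeq2. The date differences of 10 mM with NAA against the others gave 540 with DESeq2 size factors, 1087 without the filter, 627 unstranded, 971 by DESeq2 and 1027 by limma voom. Those of 100 mM alone gave 63 by DESeq2, and those of 100 mM with NAA 8 by DESeq2, 1 by limma voom and 1 without the filter. In edgeR without the harvest date as a replicate block, auxin had 5993 and sucrose 2872, and sucrose had 7556 without both libraries. Without 10 mM with NAA the exact p was 0.0278 for the share of ambiguous reads (0.148 with it) and 0.167 for genes with a count. Under alternatives, 344 values of named genes were compared, those of the date by treatment genes included, and 264 kept their status. Among the date differences of the 12 named genes, 72 values lost their call. None changed sign, but the naming rule asks for 1 sign in all 4 treatments and the largest changes, which makes a reversal unlikely beforehand. The pair of genes named for date by treatment had no call, and gained one in 8 fits. Low levels such as those of gene:RC2G0010800 in August rest on few counts.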
